A study of Homo sapiens with 8 samples.

Results

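Solute carriers are membrane proteins that move amino acids, sugars, ions, vitamins, nucleotides and drugs across the plasma membrane and the membranes of mitochondria, lysosomes and other organelles. In the liver they feed the urea cycle and the sugar and amino acid metabolism of hepatocytes. The genes described here were those whose symbol in the array annotation had the form SLC, a family number, A and a member number, and which were chosen by brightness: log2 had to exceed 4 on each array of 1 or more groups, with the probe set of highest mean standing for a symbol. This gave 17 genes of 14884 named genes. No symbol of this form was lost to the brightness rule, and all 17 were over the threshold on all 8 arrays, with values between 4.34 and 10.23. The members closest to the threshold were SLC25A2 and SLC60A1, whose brightest group had a minimum of 5.15 and 5.48, and no such symbol lay outside it. RefSeq lists 347 genes with such symbols, and the other solute carriers, among them the glucose, glutamine and lactate transporters of the SLC2, SLC1 and SLC16 families, were not analysed here. Each of the 17 genes had 1 named probe set, and 10 of them are also known by MFSD names, after the major facilitator superfamily.

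Expression was measured in total RNA on Affymetrix arrays in 4 groups of 2 arrays. HepG2, a hepatocellular carcinoma line, was kept for 48 h with 400 nM CM272 or, as control, with 0.1% DMSO, in medium with 10% fetal bovine serum. LX2, a line of hepatic stellate cells, received the same 2 treatments in medium with 2% serum. CM272 inhibits G9a, which methylates histones, and DNMT1, which maintains DNA methylation. The labels name no transgene or edited allele, each line stands for 1 cell type only, and line and serum level cannot be told apart. Values are log2 expression, where a difference of 1 is a doubling, and n is 2 arrays in every group. The labels do not say whether replicates were separate cultures, and the spread behind each p-value may therefore be technical. In these bulk samples fewer expressing cells and less RNA per cell cannot be told apart.

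The arrays fitted their line labels, though part of this was set by the brightness rule. All 13 hepatocyte markers tested were higher in HepG2 control than in LX2 control, and 6 of 8 stellate and myofibroblast markers were lower there. Of all genes tested 17.7% were higher and 40.5% lower. ALB, APOB, APOH, FGA, FGB, FGG and AHSG passed the brightness rule only through HepG2, and VIM only through LX2. Their direction is therefore no support for the labels. APOA1, APOA2, AMBP, TTR and FOXA2 were over the threshold on all 8 arrays. With CM272 in LX2 3.79% of all genes tested rose and 4.63% fell, and 25.3% had an unadjusted p under 0.05 in limma. Among the 8 stellate markers DES rose and LOX fell there. Of markers of other cell types, 1 of 5 leukocyte markers (CD14) and 0 of 4 endothelial markers rose in LX2 with CM272 (limma, 0 endothelial markers also at an unadjusted p under 0.05). The mean log2 level of 6 leukocyte markers was 5.16 to 5.39 in LX2 CM272 and 5.04 to 5.13 in LX2 control, and their part in the results below was not tested. Replicate arrays correlated across genes at 0.969 to 0.992, with LX2 CM272 the least alike. The median gap between the 2 arrays of a group over the 17 genes was 0.15 in HepG2 CM272, 0.09 in HepG2 control, 0.21 in LX2 CM272 and 0.11 in LX2 control. Array medians were 4.19 to 4.25 in HepG2 and 4.42 to 4.54 in LX2.

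The promoters of 3 genes are shown: SLC66A3, which CM272 lowered in LX2, SLC66A1, of the same family, which did not pass that test, and SLC25A15, which stood furthest above LX2 in HepG2. CG dinucleotides, the sites that DNMT1 methylates, are in capitals. The sequences are RefSeq's of build GRCh38.p14, 250 bases before to 50 after the gene start, at chr2:11155217-11155516 (plus strand) for SLC66A3, chr1:19312076-19312375 (plus strand) for SLC66A1 and chr13:40789361-40789660 (plus strand) for SLC25A15.
SLC66A3: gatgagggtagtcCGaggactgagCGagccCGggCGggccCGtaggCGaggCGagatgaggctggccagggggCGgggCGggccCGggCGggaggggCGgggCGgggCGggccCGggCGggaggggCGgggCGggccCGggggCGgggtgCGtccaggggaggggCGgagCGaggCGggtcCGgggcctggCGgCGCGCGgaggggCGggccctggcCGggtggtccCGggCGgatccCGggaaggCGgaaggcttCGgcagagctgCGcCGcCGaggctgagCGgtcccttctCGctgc
SLC66A1: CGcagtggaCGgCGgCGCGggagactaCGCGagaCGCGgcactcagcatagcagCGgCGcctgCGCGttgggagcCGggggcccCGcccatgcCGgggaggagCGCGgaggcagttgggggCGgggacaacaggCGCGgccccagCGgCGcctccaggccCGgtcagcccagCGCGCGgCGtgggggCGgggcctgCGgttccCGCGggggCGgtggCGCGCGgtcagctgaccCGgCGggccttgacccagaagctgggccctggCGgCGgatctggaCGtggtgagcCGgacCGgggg
SLC25A15: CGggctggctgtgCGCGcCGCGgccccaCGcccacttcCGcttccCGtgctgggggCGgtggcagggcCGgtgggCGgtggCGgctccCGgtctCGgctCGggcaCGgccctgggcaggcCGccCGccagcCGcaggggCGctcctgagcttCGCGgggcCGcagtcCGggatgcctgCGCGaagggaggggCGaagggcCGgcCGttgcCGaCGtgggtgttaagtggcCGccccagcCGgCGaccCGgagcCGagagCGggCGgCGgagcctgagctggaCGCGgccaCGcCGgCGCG
The window held 41 CG dinucleotides in SLC66A3, 43 in SLC66A1 and 45 in SLC25A15. Of the 17 genes 14 had a promoter in the RefSeq table, and their count ran from 17 to 45 with a median of 36, against a median of 24 over 9209 genes tested. The letters CACGTG, the E-box bound by basic helix-loop-helix factors, read on both strands, occurred in 2 of these 14 promoters (SLC60A2 and SLC61A1), against 9.61% of the promoters of genes tested. Methylation was not measured, so the counts describe sequence only.

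**Figure D1:**
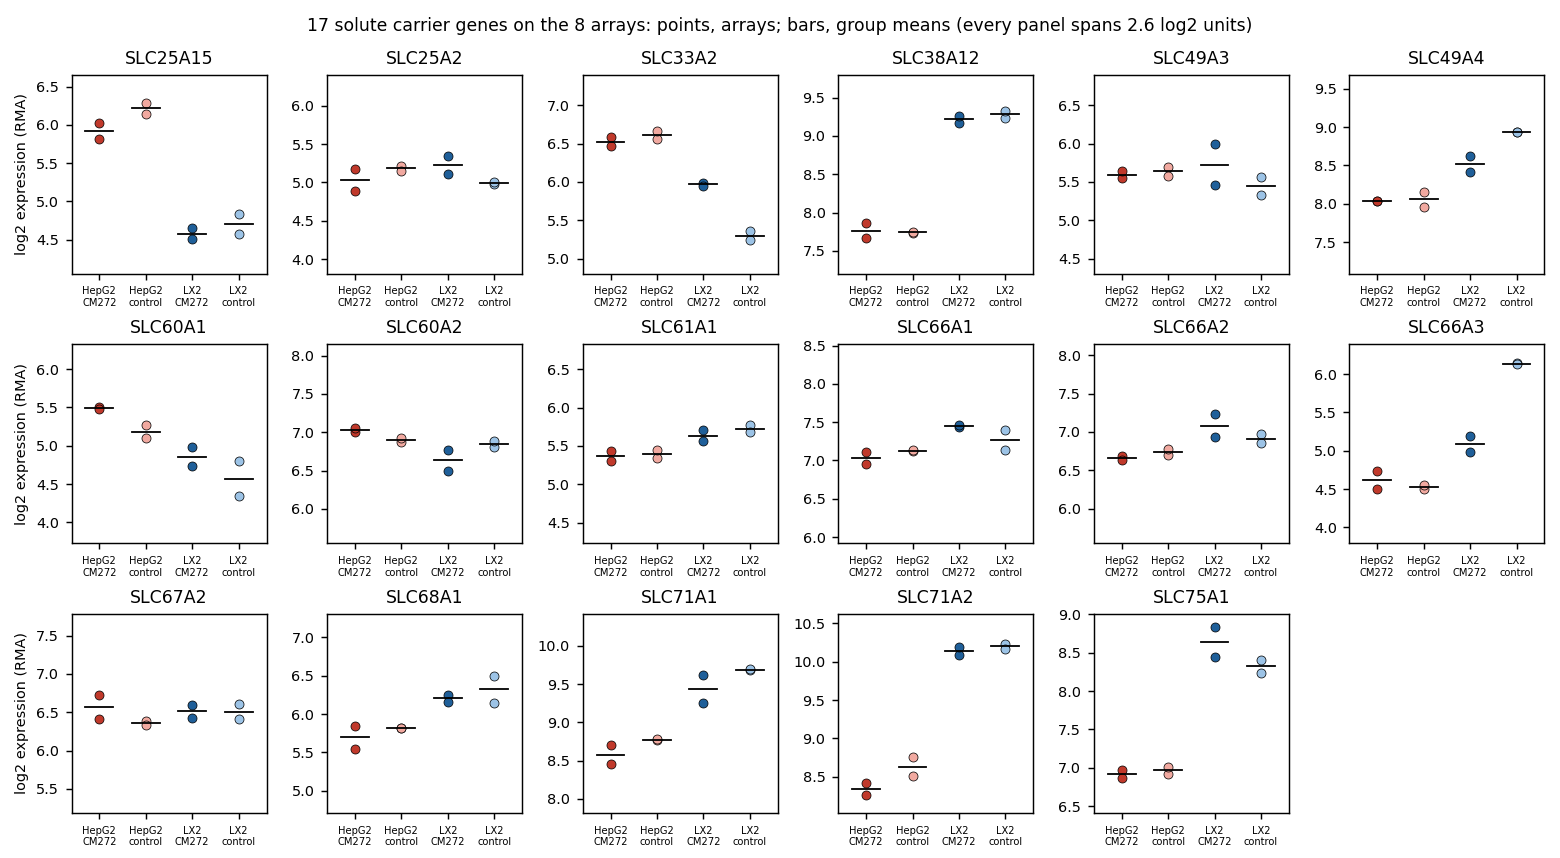
Log2 expression of the 17 solute carrier genes (vertical axis, every panel spanning 2.6 log2 units around its own mean) on each array of HepG2 CM272, HepG2 control, LX2 CM272 and LX2 control. Points are arrays and bars are group means. SLC66A3 sits at 5.19 and 4.98 in LX2 CM272 against 6.14 and 6.13 in LX2 control, while most panels differ more between lines than between treatments.

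In LX2, the stellate line, 2 of these carriers responded to CM272. SLC66A3 fell and SLC33A2 rose, and the other 15 genes did not pass the test. SLC66A3 (probe set 16877133, also called PQLC3) encodes a membrane protein with the PQ-loop repeats found in lysosomal amino acid exporters. It had 5.19 and 4.98 in LX2 CM272, against 6.14 and 6.13 in LX2 control, so that each treated array lay about a log2 unit below each control array. The difference was -1.05 (SE 0.15, 95% interval -1.38 to -0.72), a 2.07-fold lower level, with an adjusted p = 0.00543 in limma. SLC33A2 (probe set 17073908, also called MFSD3) carries the family number of the acetyl-CoA transporter of the endoplasmic reticulum. It had 5.99 and 5.95 in LX2 CM272, against 5.24 and 5.36 in LX2 control, again without overlap. The rise was 0.67 (SE 0.13, 95% interval 0.37 to 0.97), 1.59-fold, with an adjusted p = 0.0201.

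The share of the 17 genes that passed was near that of the whole array. The 1 gene that rose was 5.88% of them, against 3.79% of the 12239 genes tested, and the 1 that fell was also 5.88%, against 4.63%. Together the 2 compare with 8.42% of all genes called in either direction, and the 3 carriers at an unadjusted p under 0.05 with 25.3%. Their median change was -0.06, and that of all genes tested was -0.02. In size the fall of SLC66A3 was number 54 of 567 falls, and the rise of SLC33A2 number 352 of 464 rises. Without overlap between the 2 arrays of each group stood 4 genes higher and 4 lower, where 23.5% and 28.6% of all genes tested stood so. Each call was lost when an LX2 control array was left out, in fits where far fewer of all genes tested were called too. Without LX2 control replicate 1 or replicate 2 no carrier was called in limma (0 in each, where 1 higher and 2 lower had an unadjusted p under 0.05 with all arrays), with SLC66A3 at an adjusted p of 0.0635 and 0.0823 and SLC33A2 at 0.155 and 0.133. With each line fitted alone SLC66A3 kept an adjusted p = 0.0356, whereas SLC33A2 had 0.0888, and with array weights SLC33A2 had 0.0685.

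The other lysosomal and PQ-loop genes among the 17 did not pass in LX2. SLC66A1 (also PQLC2), which exports cationic amino acids from the lysosome, had 7.44 and 7.46 in LX2 CM272 and 7.40 and 7.13 in LX2 control, a difference of 0.18 (95% interval -0.15 to 0.50). SLC66A2 (also PQLC1) had 7.23 and 6.93 in LX2 CM272 and 6.97 and 6.85 in LX2 control, overlapping groups with a difference of 0.17 (95% interval -0.17 to 0.51). The intervals of both genes lay wholly above that of SLC66A3. SLC49A4 (also DIRC2), a lysosomal membrane protein of the family of the heme and choline carriers FLVCR1 and FLVCR2, had 8.41 and 8.62 in LX2 CM272 and 8.93 and 8.94 in LX2 control. Its difference of -0.42 (SE 0.14) had an adjusted p = 0.102, and without LX2 CM272 replicate 2 it was -0.53 and passed at 0.038. SLC49A3 (also MFSD7), of the same family, had 5.99 and 5.46 in LX2 CM272 and 5.56 and 5.33 in LX2 control. These LX2 CM272 arrays were 0.52 apart, the widest gap of any of the 17 genes in any group. The difference of SLC49A3 was 0.28 (adjusted p = 0.385), and it passed at 0.54 without LX2 CM272 replicate 2 (adjusted p = 0.0446).

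The mitochondrial ornithine carriers did not pass in LX2 either. SLC25A15 (also ORNT1) brings ornithine into mitochondria for the urea cycle, and its loss causes hyperornithinemia with hyperammonemia. It had 4.51 and 4.65 in LX2 CM272 and 4.58 and 4.83 in LX2 control (difference -0.12, 95% interval -0.47 to 0.22). SLC25A2 (also ORNT2), its close relative, had 5.34 and 5.11 in LX2 CM272 and 4.98 and 5.0 in LX2 control (difference 0.23, 95% interval -0.11 to 0.58). For SLC25A2 the groups did not overlap, yet the gap was no wider than the spread allowed (adjusted p = 0.381 in limma).

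Among the facilitators of the MFSD type the drug and organic anion carrier SLC75A1 (also MFSD10 or TETRAN) had 8.84 and 8.44 in LX2 CM272 and 8.41 and 8.24 in LX2 control, a difference of 0.32 (SE 0.17, adjusted p = 0.271), and without LX2 CM272 replicate 2 it passed at 0.52 (adjusted p = 0.0444). SLC60A1 (also MFSD4A) had 4.98 and 4.73 in LX2 CM272 and 4.80 and 4.34 in LX2 control. SLC60A2 (also NaGLT1), known in rat kidney as a sodium-dependent glucose transporter, had 6.5 and 6.77 in LX2 CM272 and 6.81 and 6.89 in LX2 control. The first pair overlapped and the second did not, and the differences of 0.28 and -0.21 had adjusted p-values of 0.363 and 0.403 in limma. SLC61A1 (also MFSD5), the molybdate transporter, had 5.71 and 5.56 in LX2 CM272 and 5.77 and 5.68 in LX2 control. SLC71A1 (also MFSD14A), first known in mouse as a transcript abundant in hippocampus, had 9.25 and 9.62 in LX2 CM272 and 9.68 and 9.69 in LX2 control. Its relative SLC71A2 (also MFSD14B) had 10.09 and 10.19 in LX2 CM272 and 10.23 and 10.17 in LX2 control. These 3 genes differed by -0.09 for SLC61A1, -0.25 for SLC71A1 and -0.06 for SLC71A2, none past the test. SLC67A2 (also MFSD9) had 6.43 and 6.6 in LX2 CM272 and 6.61 and 6.41 in LX2 control. SLC68A1 (also MFSD13A) had 6.25 and 6.16 in LX2 CM272 and 6.5 and 6.15 in LX2 control. SLC38A12 (also TMEM104), named with the sodium-coupled amino acid transporters, had 9.17 and 9.26 in LX2 CM272 and 9.23 and 9.33 in LX2 control. In these last 3 genes the treated and control arrays overlapped.

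**Figure D2:**
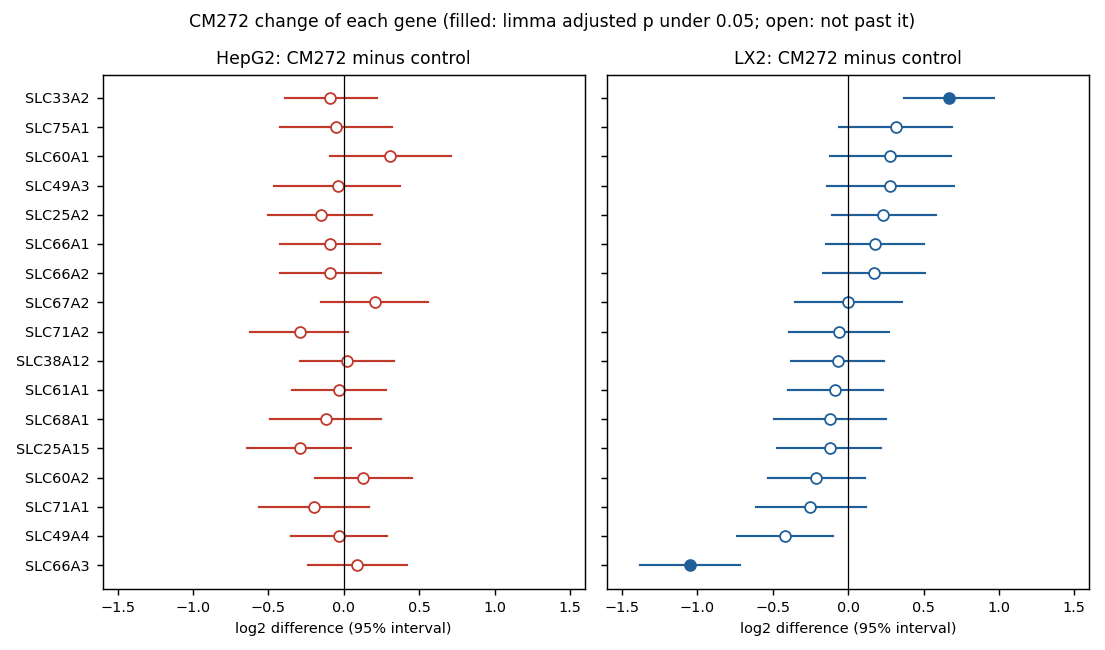
CM272 minus control (horizontal axis, log2 difference) for each of the 17 genes, in HepG2 on the left and LX2 on the right. Points are limma estimates with 95% intervals, filled where the adjusted p was under 0.05. SLC33A2 (0.67) and SLC66A3 (-1.05) in LX2 are the filled points, and all HepG2 intervals span 0.

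In HepG2 none of the 17 genes passed the test with CM272. The limma count was 0 each way, also at an unadjusted p under 0.05, and the lowest adjusted p was 0.476. Over all 12239 genes 0.0% were called higher and 0.00817% lower, a single gene, and 11.5% had an unadjusted p under 0.05. The 17 changes ran from -0.29 to 0.31 with a median of -0.05, and no 95% interval reached below -0.64 or above 0.71. The arrays of the 2 groups did not overlap for 3 genes that were higher and 5 that were lower in HepG2 CM272, where 20.7% and 28.2% of all genes tested stood so.

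The HepG2 values were as follows for the genes that moved in LX2. SLC66A3 had 4.50 and 4.74 in HepG2 CM272 and 4.50 and 4.56 in HepG2 control (difference 0.09, 95% interval -0.24 to 0.42). SLC33A2 had 6.47 and 6.58 in HepG2 CM272 and 6.56 and 6.66 in HepG2 control (difference -0.09, 95% interval -0.39 to 0.22). In both genes the treated and control arrays overlapped. The ornithine carrier SLC25A15 had 6.03 and 5.82 in HepG2 CM272 and 6.14 and 6.29 in HepG2 control, a difference of -0.29 (SE 0.15, adjusted p = 0.502). SLC71A2 had 8.42 and 8.26 in HepG2 CM272 and 8.75 and 8.51 in HepG2 control, also -0.29 (SE 0.15, adjusted p = 0.476). SLC60A1 had 5.51 and 5.48 in HepG2 CM272 and 5.27 and 5.10 in HepG2 control, a difference of 0.31 (SE 0.18, adjusted p = 0.546). In these 3 genes all treated arrays lay on 1 side of the control arrays.

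The remaining carriers stayed within 0.21 of their control means in HepG2. SLC67A2 had 6.41 and 6.72 in HepG2 CM272 and 6.38 and 6.34 in HepG2 control. SLC60A2 had 7.0 and 7.05 in HepG2 CM272 and 6.87 and 6.92 in HepG2 control. SLC71A1 had 8.71 and 8.45 in HepG2 CM272 and 8.77 and 8.78 in HepG2 control. The first 2 stood higher and SLC71A1 lower without overlap, by 0.21, 0.13 and -0.20 on the log2 scale. SLC66A1 had 6.96 and 7.11 in HepG2 CM272 and 7.12 and 7.13 in HepG2 control. SLC66A2 had 6.68 and 6.63 in HepG2 CM272 and 6.70 and 6.78 in HepG2 control. These PQ-loop genes were each lower without overlap by 0.09, less than the standard error of 0.15. SLC25A2 had 4.89 and 5.18 in HepG2 CM272 and 5.22 and 5.15 in HepG2 control. SLC68A1 had 5.55 and 5.84 in HepG2 CM272 and 5.82 in each array of HepG2 control. Both overlapped, as did SLC38A12, SLC49A3, SLC49A4, SLC61A1 and SLC75A1. The HepG2 CM272 arrays gave 7.67 and 7.86 for SLC38A12, 5.55 and 5.64 for SLC49A3, 8.03 and 8.04 for SLC49A4, 5.43 and 5.30 for SLC61A1 and 6.97 and 6.86 for SLC75A1. The HepG2 control arrays gave 7.74 and 7.75 for SLC38A12, 5.70 and 5.58 for SLC49A3, 7.96 and 8.16 for SLC49A4, 5.34 and 5.44 for SLC61A1 and 6.92 and 7.01 for SLC75A1.

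An interaction term, the HepG2 change less the LX2 change, asked whether the lines responded alike. SLC66A3 was the 1 of 17 genes past the test, at 1.14 (SE 0.21, 95% interval 0.67 to 1.61, adjusted p = 0.0384 in limma), since it fell in LX2 and differed by 0.09 in HepG2. That is 5.88% of the genes, against 0.36% of all genes tested in that direction, where SLC66A3 was number 32 of 44 by size. In the other direction 0 carriers and 0.825% of all genes were called, and 1.18% in either. At an unadjusted p under 0.05 were 2 carriers (SLC66A3 and SLC33A2) and 17.6% of all genes. SLC66A3 lay at 4.50 to 4.74 on the HepG2 arrays, near the brightness threshold of log2 4. Whether that level limited a fall of SLC66A3 there was not tested. The call was lost when any single HepG2 array or LX2 control array was left out, with adjusted p-values from 0.063 to 0.192, with no brightness filter (0.062), with all probe sets tested (0.0615) and with the replicate number as a block (0.0687). SLC33A2 had a difference of -0.76 (SE 0.19, adjusted p = 0.0894) and so was not shown to respond differently in the 2 lines. It passed without LX2 CM272 replicate 2 (-0.78, adjusted p = 0.0451) and with the filter at log2 6 (-0.76, adjusted p = 0.0396). The other 15 differences ran from -0.39 for SLC25A2 to 0.39 for SLC49A4.

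The lines themselves differed in these carriers about as often as over all genes tested. In the vehicle arrays 3 genes were higher and 7 lower in HepG2 control than in LX2 control, or 17.6% and 41.2% of the 17, against 17.7% higher and 40.5% lower of all genes tested (58.1% in either direction). At an unadjusted p under 0.05 were 11 carriers and 62.3% of all genes. The vehicle arrays did not overlap for 5 carriers that were higher and 11 that were lower, against 27.6% and 55.8% of all genes. All genes tested had a median of -0.27 in this comparison, and that of the carriers was -0.17. HepG2 arrays also had the lower medians, whose part in the split was not tested. After centring every array on its median the carriers split 6 higher and 6 lower, and all genes 3616 higher and 3249 lower, while quantile normalization over 8 arrays gave 4 and 6 carriers and 3206 and 3573 genes (2161 and 4952 as deposited).

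SLC25A15 was the carrier that stood furthest above LX2 in HepG2. It had 6.14 and 6.29 in HepG2 control, against 4.58 and 4.83 in LX2 control, a difference of 1.51 (SE 0.15, 2.85-fold, adjusted p = 2.11e-05 in limma). SLC33A2 had 6.56 and 6.66 in HepG2 control, against 5.24 and 5.36 in LX2 control (1.31, SE 0.13, adjusted p = 2.20e-05). SLC60A1 had 5.27 and 5.10 in HepG2 control, against 4.80 and 4.34 in LX2 control (0.61, SE 0.18, adjusted p = 0.0144). Of these 3, SLC60A1 lost its call with the replicate block (adjusted p = 0.0534), without LX2 control replicate 2 (0.145) and without HepG2 control replicate 1 (0.0931).

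The 7 lower genes were led by SLC66A3, the gene that CM272 lowered in LX2. It had 4.50 and 4.56 in HepG2 control, against 6.14 and 6.13 in LX2 control, a difference of -1.61 (SE 0.15, adjusted p = 1.05e-05). With CM272 its LX2 mean of 5.08 ± 0.15 (SD) lay between the 4.53 ± 0.05 of HepG2 control and the 6.14 of LX2 control. SLC71A2 had 8.75 and 8.51 in HepG2 control, against 10.23 and 10.17 in LX2 control (-1.57, SE 0.15), and SLC71A1 had 8.77 and 8.78 in HepG2 control, against 9.68 and 9.69 in LX2 control (-0.91, SE 0.16). Both SLC71 genes were thus lower in HepG2 control, with adjusted p-values in limma of 1.09e-05 for SLC71A2 and 9.92e-04 for SLC71A1. SLC38A12 had 7.74 and 7.75 in HepG2 control, against 9.23 and 9.33 in LX2 control (-1.54, SE 0.14, adjusted p = 8.69e-06). SLC75A1 had 6.92 and 7.01 in HepG2 control, against 8.41 and 8.24 in LX2 control (-1.36, SE 0.17, adjusted p = 7.25e-05). SLC49A4, the lysosomal protein, had 7.96 and 8.16 in HepG2 control, against 8.93 and 8.94 in LX2 control (-0.87, SE 0.14, adjusted p = 5.38e-04). SLC68A1 had 5.82 in each array of HepG2 control, against 6.5 and 6.15 in LX2 control (-0.51, adjusted p = 0.0238). Its difference was -0.24 relative to the median of all genes and its call was lost after centring (-0.17, adjusted p = 0.382) and with quantile normalization (-0.22, adjusted p = 0.28), as well as without LX2 control replicate 1 (0.199) or either HepG2 control array (0.0888 and 0.0898).

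The other 7 carriers did not pass between the lines. SLC61A1 was at -0.33 (adjusted p = 0.0668), SLC25A2 and SLC49A3 at 0.20 each, SLC60A2 at 0.05, SLC66A1 at -0.14, SLC66A2 at -0.17 and SLC67A2 at -0.15. After centring SLC25A2 (0.53, adjusted p = 0.0122), SLC49A3 (0.53, adjusted p = 0.03) and SLC60A2 (0.39, adjusted p = 0.0466) passed as higher in HepG2 control, SLC25A2 also with quantile normalization (0.44, adjusted p = 0.0303). SLC61A1 passed as lower, at -0.33, with array weights (adjusted p = 0.0203) and without LX2 CM272 replicate 1 (0.0331) or 2 (0.0337).

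**Figure D3:**
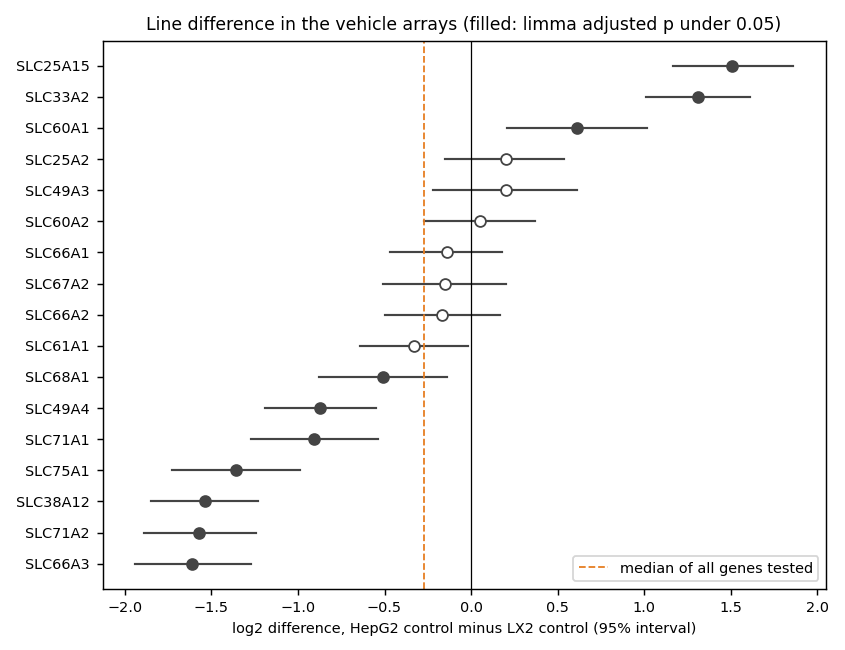
HepG2 control minus LX2 control (horizontal axis, log2 difference) for the 17 genes, with 95% intervals. Filled points passed limma at an adjusted p under 0.05, and the dashed line marks the median of all genes tested (-0.27). SLC25A15 (1.51), SLC33A2 (1.31) and SLC60A1 (0.61) lie above 0, and SLC66A3 (-1.61) is lowest.

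Some carriers outside the symbol pattern changed in LX2 with CM272. RefSeq gives an alias of the same form to 73 genes with other symbols, of which 40 were tested here. In LX2 with CM272 3 of them (7.5%) rose and 1 (2.5%) fell, against 3.79% and 4.63% of all genes tested, with a median of -0.09. By unadjusted p 4 were higher and 9 lower, where 25.3% of all genes tested had an unadjusted p under 0.05 in either direction. Between the vehicle arrays 7 were higher and 15 lower in HepG2 control than in LX2 control (17.5% and 37.5%, against 17.7% and 40.5% of all genes). The 15 included RHAG, which entered the test through LX2 only. MFSD2A, which carries lysophosphatidylcholine with docosahexaenoic acid into cells, had 7.01 and 7.03 in LX2 CM272, against 6.14 and 5.81 in LX2 control (1.05, SE 0.16, adjusted p = 0.00847). MPDU1, a PQ-loop protein of dolichol-linked sugar use with the alias SLC66A5, had 6.02 and 5.81 in LX2 CM272, against 5.39 and 5.21 in LX2 control (0.62, SE 0.15, adjusted p = 0.0356). CNNM2, a magnesium transport mediator, rose by 0.57 (SE 0.14, adjusted p = 0.0402), and TMEM165, a Golgi manganese and calcium carrier, fell by 0.52 (SE 0.14, adjusted p = 0.0488). The call was lost in 12 of 17 alternatives for MPDU1, 12 of 18 for CNNM2 and 14 of 18 for TMEM165, and for MFSD2A without LX2 control replicate 2 (0.88, adjusted p = 0.11). In HepG2 none of the 40 passed (limma, 0 adjusted and 4 by unadjusted p, 2 each way, against 11.5% of all genes by unadjusted p).

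A list of 39 carriers and partner proteins of solute carriers had 21 tested members, of which MFSD2A rose and EMB fell in LX2. Each is 4.76% of the list, against 3.79% higher and 4.63% lower of all genes tested. By unadjusted p 2 of the list were higher and 6 lower, where 25.3% of all genes passed so in either direction. Between the vehicle arrays 5 were higher and 6 lower in HepG2 control (23.8% and 28.6%, against 17.7% and 40.5% of all genes tested). The 5 included CP, which entered the test through HepG2 only, and the 6 included EMB, which entered through LX2 only. EMB, embigin, is an accessory protein of monocarboxylate transporters. It had 5.65 and 5.74 in LX2 CM272, against 6.67 and 6.35 in LX2 control (-0.81, SE 0.15, adjusted p = 0.0167), without overlap. Its HepG2 values of 2.6 and 2.49 with CM272 and 2.21 and 2.10 in control lay under the brightness threshold, so its response there is not compared. The LX2 call was lost with array weights (adjusted p = 0.0685), with each line alone (0.0755) and without LX2 control replicate 1 (0.145) or 2 (0.0823). In HepG2 none of the 21 passed (limma, 0 adjusted, and 2 higher by unadjusted p, against 11.5% of all genes in either direction).

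Of 4 further solute carrier symbols, SLC9D1, of the sodium-proton exchanger family, had 7.41 and 7.38 in LX2 CM272, against 8.03 and 7.88 in LX2 control (-0.56, SE 0.13, adjusted p = 0.0345), a call lost in 13 of 18 alternatives. SLC35D4, SLC35F6 and SLC51A did not pass in LX2, at -0.01, 0.08 and -0.02. Of these 4 symbols SLC9D1, SLC35D4 and SLC35F6 were lower in HepG2 control than in LX2 control, against 40.5% of all genes tested. SLC35D4 kept this call, at -1.57 to -1.13, but SLC9D1 lost it in 4 of 17 alternatives and SLC35F6 in 6 of 17. After centring SLC9D1 and SLC35F6 were each at -0.14 (limma, adjusted p = 0.384 and 0.451). With quantile normalization they were at -0.21 and -0.24 (adjusted p = 0.202 and 0.249). A hepatocyte-type transporter list of 42 genes had only SLC25A15 and SLC51A on the annotated array, and SLC25A15 was the 1 that was higher in HepG2 control than in LX2 control. SLC51B, the beta subunit of the basolateral bile acid transporter whose alpha subunit is SLC51A, had 7.44 and 7.17 in HepG2 CM272, against 8.06 and 8.08 in HepG2 control. That difference of -0.77 (SE 0.16) had an adjusted p = 0.227, while SLC51A had 4.80 and 4.28 in HepG2 CM272 and 4.22 and 4.20 in HepG2 control. SLC51B, which was not on the hepatocyte-type list, stood 3.76 higher (SE 0.16, adjusted p = 6.37e-08) in HepG2 control than in LX2 control, where it had 4.15 and 4.48.

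SLC7A11-AS1, an RNA annotated antisense to the cystine transporter gene SLC7A11, had 5.26 and 5.87 in LX2 CM272, against 3.59 and 3.52 in LX2 control. In HepG2 it had 3.68 and 3.76 with CM272 and 3.92 and 3.79 in control. It was over the threshold in LX2 CM272 only and was tested because of that group, so its values are a description and no size of change is drawn from them. SLC7A11 itself and the rest of a list of 14 ATF4-responsive amino acid transporters were not analysed here. Of 15 tested ATF4 and CHOP response genes 5 (33.3%) rose in LX2, against 3.79% of all genes tested, among them ATF3, CTH, DDIT3 and SESN2. The list median was -0.06, and 0 fell in limma. By unadjusted p 5 were higher and 4 lower, against 25.3% of all genes in either direction. The 4 lower were PSAT1 (-0.72), ASNS (-0.49), AARS1 (-0.42) and PHGDH (-0.33). Of 9 tested metal response genes MT1G (11.1%) rose and 0 fell, against 3.79% higher and 4.63% lower of all genes tested (limma, 0 lower also by unadjusted p). MT1G had 5.24 and 4.28 in LX2 CM272 and 2.82 and 2.23 in LX2 control. The control arrays lay under the brightness threshold, so no size of change is drawn from them. For neither list were the alternatives examined gene by gene. In HepG2 0 of either list passed in limma, with 6 of the ATF4 and CHOP genes lower and 3 of the metal genes higher by unadjusted p. There 11.5% of all genes tested had an unadjusted p under 0.05 in either direction.

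**Figure D4:**
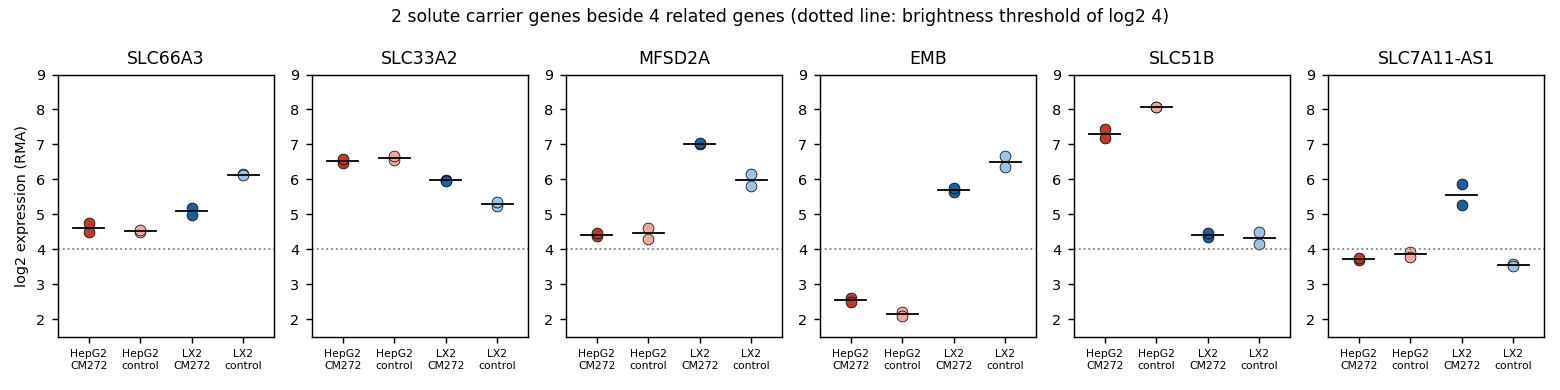
Log2 expression (vertical axis) on each array of SLC66A3 and SLC33A2 beside MFSD2A, EMB, SLC51B and SLC7A11-AS1, with bars at group means and a dotted line at log2 4. SLC66A3 and EMB are lower, and SLC33A2, MFSD2A and SLC7A11-AS1 higher, in both LX2 CM272 arrays than in both LX2 control arrays.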

How the data were processed

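Total RNA was measured on 8 whole-transcript arrays. The authors deposited log2 values made with RMA, per the submitters' processing notes; its version, whether all arrays were run together and the array design's build are not given in the sources used here. RMA corrects background, normalizes between arrays and compresses folds of dim genes. Of 48416 probe sets, 16098 had 1 symbol in the platform annotation and 0 had several. Each of the 14884 symbols was represented by its brightest probe set on average, and the 12239 genes past the brightness rule were tested.

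A single model in limma 3.58.1 (R 4.3.3), tested on simulated data, gave every comparison, two-sided, with Benjamini-Hochberg adjustment over the 12239 genes and a threshold of 0.05. For 2 arrays against 2 the smallest exact permutation p is 0.333. The members and lists were chosen with earlier results of these data known, and the alias list was drawn from RefSeq after the annotation was read. Named were all members and, from each list, up to 4 genes past the threshold or 2 that were not, with all 4 further solute carrier symbols besides. SLC51B, SLC7A11-AS1, PSAT1, ASNS, AARS1 and PHGDH were named after their values were seen. Alternatives were other filters, probe sets, normalizations and variance models, array weights, each line alone, a replicate block and each array left out. Deviations of same-numbered replicates correlated at 0.069 (HepG2) and 0.077 (LX2), so numbers were not taken as pairs. The number of arrays limits the precision.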

Additional observations from a re-analysis of the deposited data

Results flagged for a closer look

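Among the 17 carriers the CM272 effect differed between the lines for SLC66A3, by 1.14 log2 (change in HepG2 minus change in LX2, limma interaction). SLC66A3 lay at 4.50 to 4.74 in HepG2, near the brightness threshold of log2 4, and whether that level limited a fall there was not tested. The same term was -2.15 for SLC7A11-AS1 and 1.2 for EMB, but neither value can be read as a measured difference between the lines. SLC7A11-AS1 was under the brightness threshold of log2 4 on all arrays except those of LX2 CM272, and entered the test through that group alone. EMB was under it on all 4 HepG2 arrays and entered through LX2. The difference of SLC66A3 was lost in 9 of 17 alternatives (1.02 to 1.26). No cause was tested.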

How the results depend on the processing

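No HepG2 carrier was called under any of the 18 alternatives, so that count stayed at 0 each way in limma. In LX2 the count of carriers that rose with CM272 was 0 with array weights and 0 with each line fitted alone, and ran from 0 to 3 when 1 array was left out, and the count that fell ran from 0 to 2. For the interaction the count higher was 0 with no brightness filter, 0 with all probe sets tested and 0 with the replicate number as a block, and 0 to 1 with 1 array left out. The interaction count lower was 1 with the filter at log2 6 and 0 to 1 with 1 array left out. Between vehicle arrays 6 carriers were higher in HepG2 after centring arrays on their medians, an alternative chosen after seeing the data, and 2 to 3 with 1 array left out, while 6 to 8 were lower under every alternative run. The block changed no other count by over 1.5 times. Leaving out an array reduces the samples in the fit, and otherwise the cause was not tested. Of 1932 single-gene values under alternatives, 1803 kept their side of the threshold, 111 lost a call, 18 gained one and 0 called values turned sign, while 39 uncalled values did, none larger than 0.22. With 2 arrays a group, differences smaller than about the intervals given could not be resolved.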
